A study of Mus musculus with 5 samples.

Results

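The genes described here encode the pores and accessory subunits of potassium, voltage-gated calcium, voltage-gated sodium, TRP and Piezo channels in primary mouse lung fibroblasts, cells that lay down the matrix of the lung and were grown in culture. They were chosen by name and by total count. Of the 55335 gene IDs in the table, 159 were protein-coding genes whose symbol begins with Kcn, Cacn, Trpc, Trpv or Trpm, has the form of a numbered Scn gene ending in a or b, or is Piezo1 or Piezo2. The 64 with at least 50 counts summed over the 5 libraries were kept as members, and all 64 passed the low-count filter of the test. The other 95 were dropped, 39 of them with 0 counts in every library. Just inside the minimum stood Trpc4 with 50 counts, and just outside it stood Kcnmb4 with 49 and Kcnf1 with 48. Trpc4ap entered by its prefix, although it encodes a TRPC4-associated adaptor of a ubiquitin ligase and no pore.

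In 3 libraries the cells had received 5 ng/mL of TGF-β1 for 24 h, and in the other 2 a vehicle. TGF-β1 signals to SMAD proteins and drives fibroblasts toward a contractile state, the myofibroblast. The series names no genotype, strain, sex or age of the mice. It calls the libraries independent biological replicates and does not say if each had its own animal or culture. The p-values therefore reflect only how far these 5 libraries differ, which may be technical.

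Potassium channels let potassium leave the cell and hold the membrane potential negative, which sets the driving force for calcium entry. Voltage-gated calcium channels open on depolarization, TRP channels are mostly calcium-permeable cation channels that respond to lipids, temperature, store depletion or stretch, and Piezo channels are large trimeric cation channels opened by membrane tension. In fibroblasts, which do not fire action potentials, calcium signals that pass through such channels act on contraction, migration and gene expression.

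Libraries held 34283288 to 40245128 counts in the controls and 39769301 to 43163967 with TGF-β1. The 9 fibroblast markers were all detected (4 higher, 5 lower), at a summed 26140 to 27150 CPM (counts scaled to library size with TMM factors) in the controls and 33270 to 33530 CPM with TGF-β1, and 6 of 6 TGF-β1 response genes rose. Most of the fibroblast sum was Col1a1 and Col1a2. Markers of other cells were also present. Macrophage markers summed to 2451 to 2518 CPM in the controls and 1540 to 1574 CPM with TGF-β1 (1 of 8 higher, 6 lower, 0 at 0 counts in all libraries). Most of the macrophage sum was Lyz2, at a mean of 1994 CPM in the controls and 1137 CPM with TGF-β1. Mesothelial markers summed to 1432 to 1521 and 202 to 221 CPM (0 of 10 higher, 9 lower, 0 at 0 counts). Smooth muscle markers summed to 11940 to 12280 and 11720 to 11810 CPM (1 of 7 higher, 5 lower). Pericyte markers summed to 201 to 203 and 260.2 to 266 CPM (2 of 7 higher, 1 lower), with Higd1b at 0 counts in all libraries. Endothelial, epithelial and cardiac markers summed to between 1.97 and 5.79 CPM in every library. Schwann and neuronal markers summed to 31.6 to 32.3 and 48.5 to 64.2 CPM, most of it Tubb3 (31.1 ± 0.685 to 57.3 ± 8.36 CPM, mean ± SD over 2 and 3 libraries, as for all such values here), and Sftpb, Sftpc and Scgb1a1 were at 0 counts in all libraries. The part of these cells in the results below was not tested. In such bulk samples, fewer cells of a type and less RNA per cell cannot be told apart.

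Channel genes were more often lower than higher after TGF-β1. At an adjusted p under 0.05 over all 16380 genes tested, 39 of the 64 members differed (60.9%), against 44.5% of all genes. The call was an increase in 7 members (10.9%) and a decrease in 32 (50%), with 25 not passing, and over all genes 21.3% were higher and 23.2% were lower. Higher genes were thus 47.9% of all calls, or 32.1% when counts were scaled to library totals alone, with 6 members higher and 33 lower. The members' median log2 ratio (TGF-β1 over control) was −0.44, and that of all genes was 0.00. Among the 23 members with a mean of at least 5 CPM, 2 were higher and 17 were lower (8.7% and 73.9%). Of the 10928 genes at that level, 28.4% were higher and 25.3% lower. At 1 to 5 CPM, 4 of 22 members were higher and 9 lower, against 225 and 686 of 2600 genes. Under 1 CPM, 1 of 19 members was higher and 6 were lower, against 155 and 348 of 2852 genes. Increases were few and large: 5 of the 7 were at least 2-fold (Kcnk12, Kcnn3, Kcnh1, Kcnk3 and Piezo2), or 7.81% of the 64 members, while 3.19% of all 16380 genes were called higher and at least 2-fold. Decreases of at least 2-fold were called for 18 members, or 28.1%, against 7.74% of all genes. Every TGF-β1 library lay above both controls in 11 members (17.2%) and below both in 35 (54.7%), against 31.6% and 33.0% of all genes. In 8 members the count minimum was met only through the higher group. At the mean of the lower group, 5 libraries would have stayed under 50 counts. Of the 8, 2 were called higher (Kcnk12 and Kcnk3), 4 lower (Kcnh3, Kcnip2, Kcnj8 and Trpc4) and 2 not called (Kcnj14 and Cacnb4). The shares given here therefore describe the members that passed and not all 159 genes. The 64 members include genes of low abundance, with a median of 3.10 CPM over the 5 libraries against 22.1 CPM for all 13703 protein-coding genes tested. Against a null of a 1.5-fold change, 4 of the 64 members were higher and 16 lower, beside 563 and 1223 of all 16380 genes. For each subfamily below, the shares of all genes to set beside its calls are 21.3% higher and 23.2% lower.

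**Figure D1:**
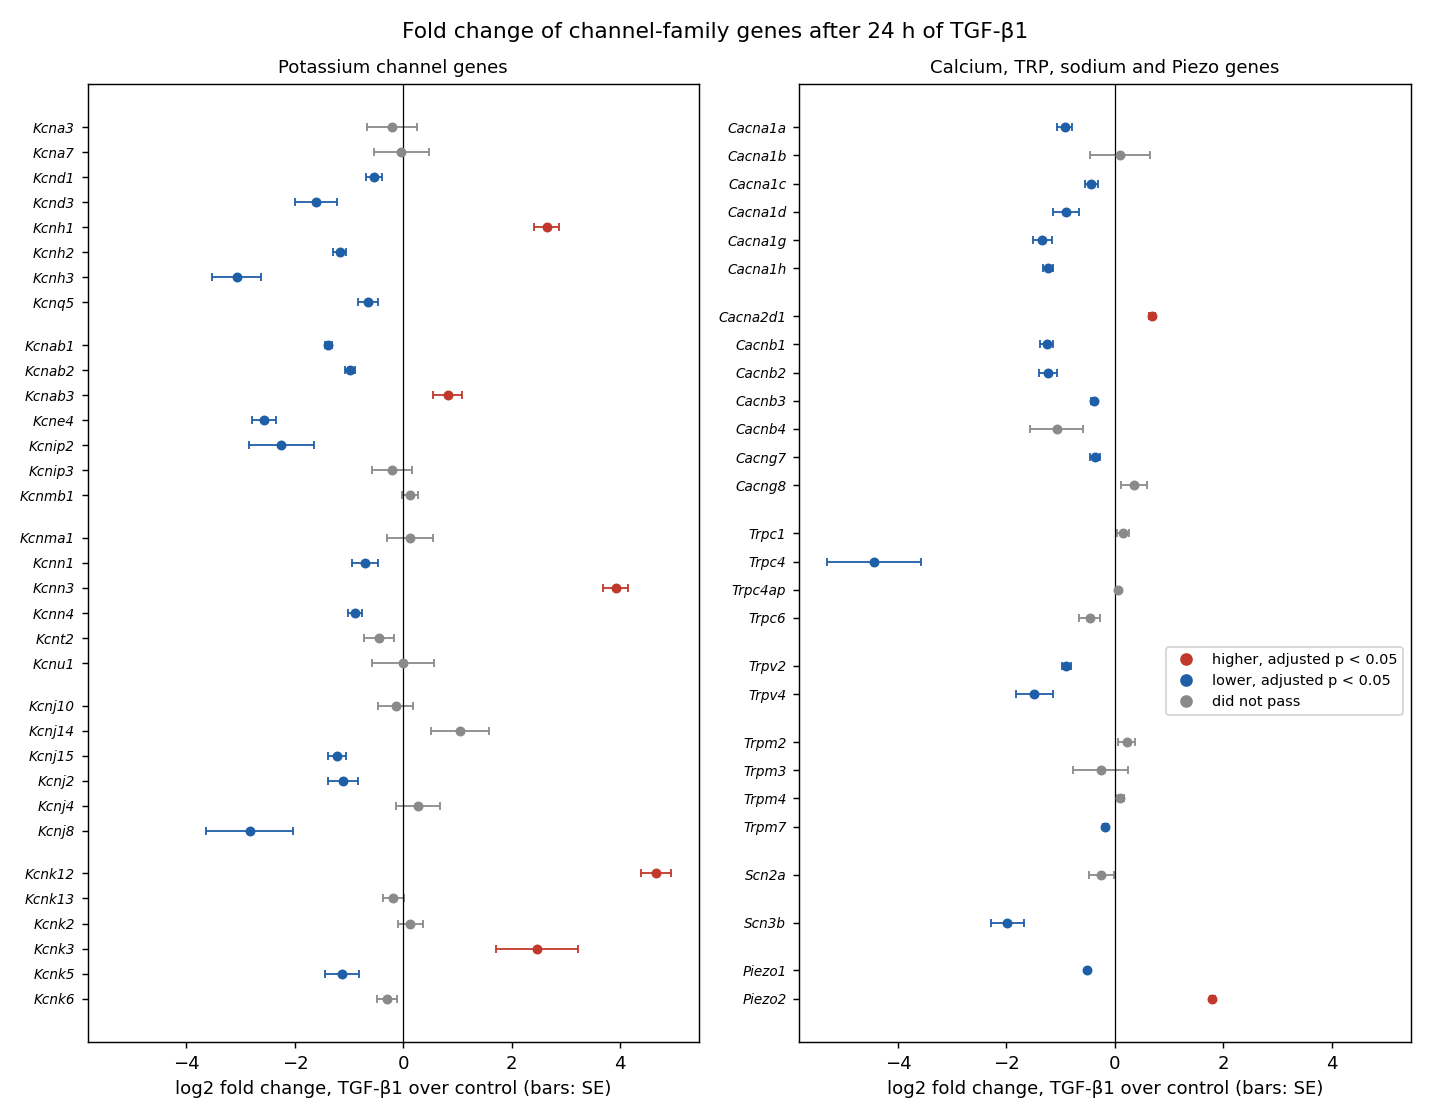
Log2 fold change (log2 ratio) of each channel gene named in the text (horizontal axis, TGF-β1 over control), with the standard error as a bar, grouped by subfamily and colored by the edgeR call at an adjusted p under 0.05. The 7 increases reach 4.66 (Kcnk12), the decreases that passed all lie left of 0, and Trpc4 has the lowest value at −4.45.

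**Figure D2:**
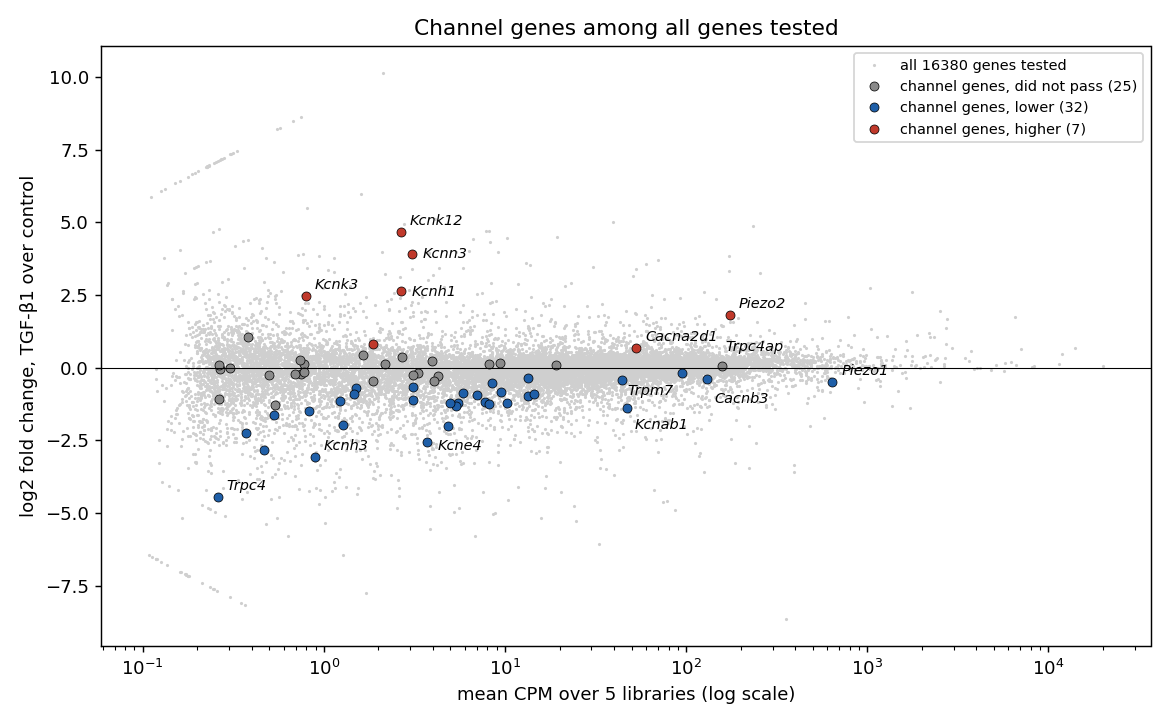
Mean level over the 5 libraries (horizontal log axis, CPM) against log2 fold change for all 16380 genes tested (gray points) and the 64 members (large points, colored by call). Most of the members with a mean of at least 5 CPM lie below 0, with Piezo2 and Cacna2d1 as the 2 above it that were called.

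The Piezo genes, which encode the stretch-gated channels, moved in opposite directions. Piezo1 (ENSMUSG00000014444 on chromosome 8, 122481698 to 122551329, GRCm38) was the most abundant member, also per kilobase of exon (78.4 to 55.2 CPM per kb), at 796 and 762 CPM in the controls and 548, 558 and 539 CPM with TGF-β1. Every treated library was below both controls, a fall of 1.42-fold (log2 ratio −0.51 with SE 0.028 and adjusted p = 6.99e-07). Piezo2 (ENSMUSG00000041482 on chromosome 18, 63010213 to 63387183) stood at 70.4 and 70.0 CPM in the controls and 238, 241 and 254 CPM with TGF-β1. The groups lay far apart and replicates close together, and the rise was 3.48-fold (log2 ratio 1.80 with SE 0.041 and adjusted p = 2.16e-09), the smallest p-value of any member. The ratio of Piezo1 to Piezo2 in CPM went from 11.3 and 10.9 in the controls to 2.30, 2.32 and 2.12 with TGF-β1. Per kilobase of exon the ratio was 19.2 ± 0.516 in the controls (mean ± SD, n = 2) and 3.88 ± 0.186 with TGF-β1 (n = 3), so Piezo1 stayed the more abundant transcript in every library. Their summed level was 849 ± 24.3 CPM and 793 ± 6.61 CPM, lower by 1.07-fold with TGF-β1. Piezo1 exons overlap those of Ctu2 on the opposite strand over 2441 bases, or 24.6% of the Piezo1 exon length. Over the whole genes, the count of Ctu2 was 0.0263 of that of Piezo1.

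**Figure D3:**
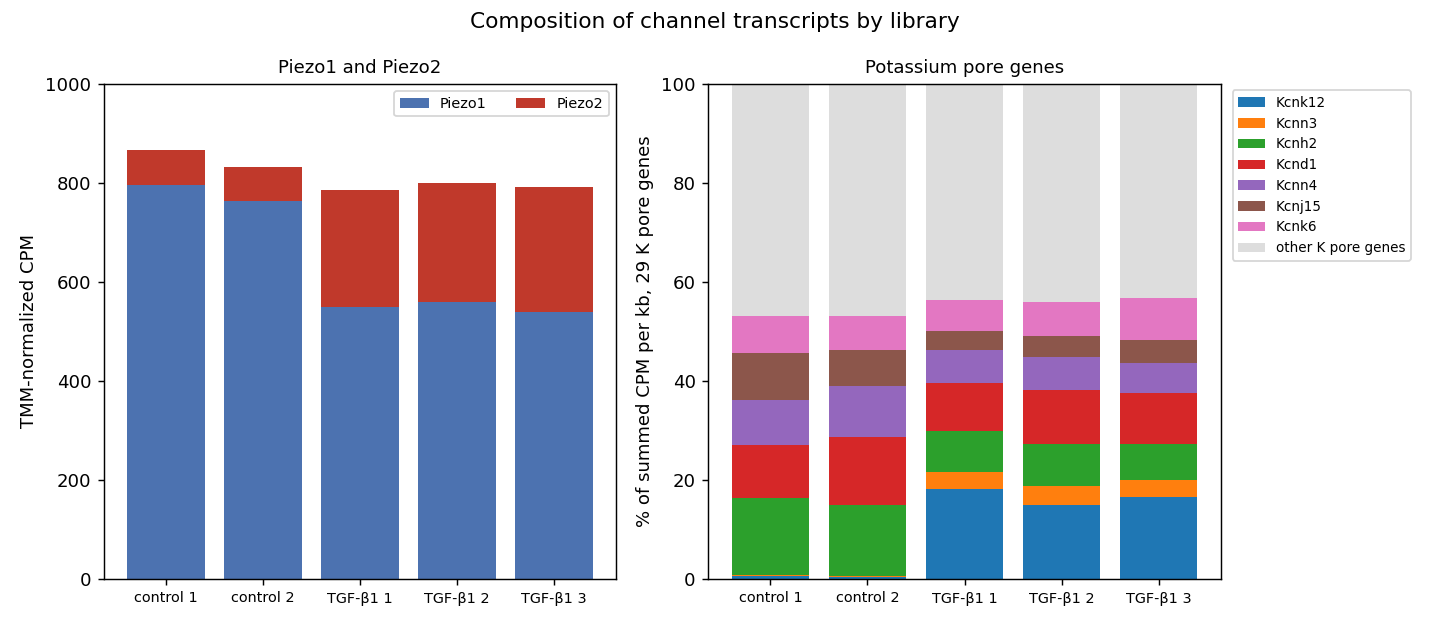
Left, TMM-normalized CPM of Piezo1 and Piezo2 stacked for each of the 5 libraries; right, share of the summed CPM per kilobase of exon of 29 potassium pore genes taken by 7 named genes in each library. Piezo2 takes a larger part of the left bars in all 3 TGF-β1 libraries, and Kcnk12 goes from under 1% to between 15 and 18.2% of the right ones.

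The largest increases among the members were in potassium pores that were scarce in the controls. Of these, Kcnk12 met the count minimum only through the TGF-β1 libraries. A gene as scarce in the controls that did not rise would have been dropped. Kcnk12 (ENSMUSG00000050138 on chromosome 17, 87745801 to 87797994), a tandem-pore-domain background channel of the THIK type, had 0.197 and 0.143 CPM in the controls and 4.62, 3.83 and 4.5 CPM with TGF-β1. The controls held 7 and 6 counts and no treated library had fewer than 161, and the gene rose 25.3-fold (log2 ratio 4.66 with SE 0.28 and adjusted p = 1.24e-06). Its closest relative Kcnk13, the other THIK gene, was at 3.57 ± 0.037 to 3.15 ± 0.513 CPM and did not pass (adjusted p = 0.476). Kcnn3 (ENSMUSG00000000794 on chromosome 3, 89520164 to 89675132), the small-conductance calcium-activated channel SK3, was at 0.309 and 0.333 CPM in the controls and 4.53, 5.17 and 4.99 CPM with TGF-β1. All treated libraries were far above both controls, and the change was 15.1-fold (log2 ratio 3.91 with SE 0.23 and adjusted p = 9.88e-07). Kcnh1 (ENSMUSG00000058248 on chromosome 1, 192190774 to 192510159), a voltage-gated channel of the ether-à-go-go family, went from 0.534 and 0.737 CPM to 4.15, 4.17 and 3.75 CPM (log2 ratio 2.65 with SE 0.23 and adjusted p = 1.41e-05). Its relatives Kcnh2 and Kcnh3 both fell, as given with the voltage-gated genes. In level per kilobase of exon, Kcnk12 stood at rank 24 of the 29 potassium pore genes in the controls and at rank 1 with TGF-β1 (0.086 to 2.19 CPM per kb). Kcnn3 moved from rank 29 to rank 9 and Kcnh1 from rank 23 to rank 8. These ranks depend on exon length, which is 1972 bases for Kcnk12. In mean CPM with TGF-β1, Kcnk12 (4.32) was below Kcnd1 (7.17), Kcnh2 (5.14), Kcnn3 (4.89) and Kcnn4 (4.4).

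The promoters of these 3 genes are shown because they are the largest increases among the members, beside that of Trpv4, a pore gene that fell. Each sequence is the 250 bases before the transcription start given by RefSeq on GRCm38.p6, 5′ to 3′ on the gene's strand. Capitals mark matches, on either strand, to TGANTCA (AP-1), GTCTAGAC (a palindromic SMAD site), GGAATG (TEAD) or GGAAAA (the core of NFAT sites). No matches shown overlapped.
Kcnk12, chr17:87797995-87798244, minus strand: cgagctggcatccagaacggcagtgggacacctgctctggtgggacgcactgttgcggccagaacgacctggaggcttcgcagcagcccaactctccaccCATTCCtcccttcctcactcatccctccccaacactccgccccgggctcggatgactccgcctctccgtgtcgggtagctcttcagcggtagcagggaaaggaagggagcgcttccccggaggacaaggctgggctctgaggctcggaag
Kcnn3, chr3:89519914-89520163, plus strand: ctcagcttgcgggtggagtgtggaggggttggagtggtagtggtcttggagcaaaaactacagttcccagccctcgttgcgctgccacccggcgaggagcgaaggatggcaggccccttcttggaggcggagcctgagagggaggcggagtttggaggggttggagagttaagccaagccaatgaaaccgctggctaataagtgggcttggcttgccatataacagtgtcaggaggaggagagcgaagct
Kcnh1, chr1:192190527-192190776, plus strand: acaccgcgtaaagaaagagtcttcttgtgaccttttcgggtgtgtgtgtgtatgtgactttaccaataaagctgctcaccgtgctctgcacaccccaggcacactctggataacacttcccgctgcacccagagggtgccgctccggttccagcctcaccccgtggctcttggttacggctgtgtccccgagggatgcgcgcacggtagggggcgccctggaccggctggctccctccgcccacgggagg
Trpv4, chr5:114658422-114658671, minus strand: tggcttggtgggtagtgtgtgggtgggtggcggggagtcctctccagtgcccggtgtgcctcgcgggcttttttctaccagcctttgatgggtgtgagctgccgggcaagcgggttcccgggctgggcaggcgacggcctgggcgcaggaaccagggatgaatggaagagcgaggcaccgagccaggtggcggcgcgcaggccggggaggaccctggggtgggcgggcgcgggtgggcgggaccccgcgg
The 3 promoters of increased genes were 58.8 to 64.8% G or C, and that of Trpv4 was 72%. Trpv4 was not typical of the decreases, as those of Kcne4 and Kcnd3 were 53.2% and 62.8%. The median was 63.4% over promoters of higher members, 58.4% over those of lower members and 52.4% over all promoters. A TEAD match stood in that of Kcnk12, beginning 150 bases before the start. Those of Kcnn3, Kcnh1 and Trpv4 had no match in this window. The promoters of Kcne4 and Kcnd3, which fell further than Trpv4, are not shown. That of Kcne4 had an NFAT core match, beginning 68 bases before the start, and that of Kcnd3 had none. RefSeq entries were found for 47 of the 64 members (70 promoters), 4 of the 7 higher and 24 of the 32 lower. Over all 27025 genes with an entry, 7.82% had the AP-1 letters, 0.20% the SMAD palindrome, 14.4% the TEAD letters and 22.9% the NFAT core. Among the 47 members the same letters were found in 2, 0, 7 and 7 genes, of which the higher ones were 0, 0, 1 and 0 and the lower ones 0, 0, 3 and 3. A match is a string of letters and no measured binding.

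Tandem-pore-domain channels carry the resting potassium leak. Of the 6 members, 2 were higher and 1 was lower, against 21.3% and 23.2% of all genes tested. Besides Kcnk12, the acid-sensitive TASK channel gene Kcnk3 rose, from 0 and 0.404 CPM in the controls to 0.994, 1.05 and 1.52 CPM (log2 ratio 2.46 with SE 0.76 and adjusted p = 0.0256). The controls disagreed, with 0 and 17 counts, and DESeq2 made no call (adjusted p = 0.178), nor did edgeR on unfiltered genes (0.0712). Kcnk3 too met the count minimum only through the TGF-β1 libraries. Kcnk5, another acid-sensitive leak channel, fell from 1.83 ± 0.634 to 0.83 ± 0.121 CPM (log2 ratio −1.13 with SE 0.31 and adjusted p = 0.0147), a call that was lost without control 1 (adjusted p = 0.174). Kcnk2, the stretch- and lipid-sensitive channel TREK-1, was at 1.71 and 2.4 CPM in the controls and 2.24, 2.5 and 2.04 CPM with TGF-β1, with overlapping groups (log2 ratio 0.13 with SE 0.23 and adjusted p = 0.678). Kcnk6 was at 4.84 ± 0.186 to 3.93 ± 0.822 CPM and did not pass (adjusted p = 0.229), but did so without TGF-β1 replicate 3 (adjusted p = 0.040).

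**Figure D4:**
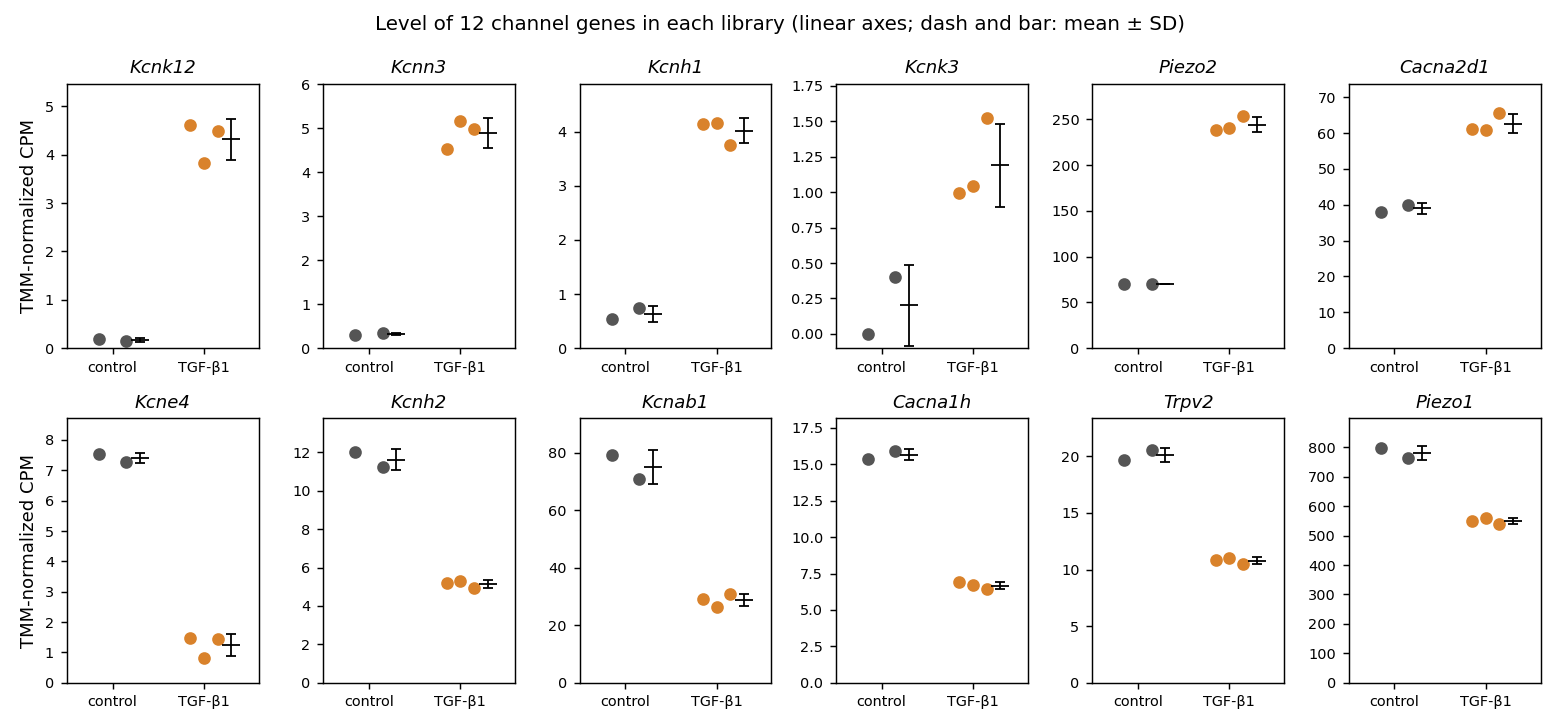
TMM-normalized CPM of 12 members in each library on linear axes (gray points, 2 controls; orange points, 3 TGF-β1 libraries; dash and bar, mean ± SD). In the 6 genes of the upper row every TGF-β1 library lies above both controls and in the 6 of the lower row below both; for Kcnk3 the SD of the controls reaches below 0.

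Calcium-activated potassium channels, which open when cytosolic calcium rises, changed in relative abundance. Kcnn4, the intermediate-conductance channel studied in fibroblasts and also found in macrophages, was at 7.56 and 8.7 CPM in the controls and 4.47, 4.4 and 4.32 CPM with TGF-β1. It fell 1.85-fold (log2 ratio −0.89 with SE 0.13 and adjusted p = 4.47e-04) while Kcnn3 rose, and of 8 macrophage markers 6 fell and 1 rose, whose part was not tested. The ratio of Kcnn4 to Kcnn3 in CPM per kilobase went from 51.7 ± 2.44 in the controls to 1.84 ± 0.154 with TGF-β1. Per kilobase, Kcnn4 thus stayed the higher of the pair, while in CPM Kcnn3 was the higher in every treated library. Kcnn1, another small-conductance channel, fell from 1.96 ± 0.248 to 1.2 ± 0.0751 CPM (log2 ratio −0.70 with SE 0.24 and adjusted p = 0.0369), a weak call that was lost without control 1 (adjusted p = 0.192), control 2 (0.0677), TGF-β1 replicate 1 (0.0981) or replicate 2 (0.079) and with DESeq2 (0.093). Kcnma1, the pore of the large-conductance BK channel, was scarce at 0.534 and 0.927 CPM in the controls and 1.14, 0.714 and 0.543 CPM with TGF-β1 and the groups overlapped (log2 ratio 0.12 with SE 0.43 and adjusted p = 0.845). Its smooth muscle β subunit Kcnmb1 was more abundant per kilobase (1.85 to 2.02 CPM per kb, against 0.043 to 0.0471 CPM per kb for Kcnma1), at 7.76 ± 0.821 to 8.46 ± 1.05 CPM and did not pass either (adjusted p = 0.51). The sodium-activated Kcnt2 and the sperm channel gene Kcnu1 did not pass (adjusted p = 0.232 and 0.997).

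Among voltage-gated potassium pores, which repolarize excitable cells, 1 of 11 was higher (Kcnh1) and 6 were lower. Kcnh2 (ENSMUSG00000038319 on chromosome 5, 24319589 to 24351604), the ERG channel of cardiac repolarization and the highest potassium pore gene per kilobase in the controls, fell from 11.6 ± 0.528 to 5.14 ± 0.204 CPM (log2 ratio −1.18 with SE 0.11 and adjusted p = 2.69e-05). Kcnh3 fell from 1.9 ± 0.533 to 0.221 ± 0.129 CPM (log2 ratio −3.07 with SE 0.45 and adjusted p = 4.63e-04), a value kept uncertain because an exon meets that of the much more abundant Mcrs1 on the opposite strand over 1 base. The A-type channel genes Kcnd1 and Kcnd3 both fell. Kcnd1, at rank 2 of the 29 potassium pore genes per kilobase in both groups, was at 9.02 and 11.8 CPM in the controls and 6.54, 7.4 and 7.58 CPM with TGF-β1 (log2 ratio −0.54 with SE 0.14 and adjusted p = 0.0119), and without control 2 its adjusted p was 0.143. Kcnd3 was lower by 3.06-fold, from 0.891 ± 0.0501 to 0.289 ± 0.0425 CPM (log2 ratio −1.61 with SE 0.38 and adjusted p = 0.00718, or adjusted p = 0.0571 without control 1). Kcnq5, an M-type channel gene, fell from 3.98 ± 0.425 to 2.54 ± 0.332 CPM (adjusted p = 0.0176, or 0.127 without control 2). Kcna3 and Kcna7 did not pass, with adjusted p of 0.746 and 0.961.

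Accessory subunits of potassium channels were mostly lower (1 of 7 higher, 4 lower, against 21.3% and 23.2% of all genes tested). Kcnab1 (ENSMUSG00000027827 on chromosome 3, 65109384 to 65378223), a β subunit of voltage-gated channels with an aldo-keto reductase fold, was the most abundant gene of the potassium group per kilobase (8.74 to 3.36 CPM per kb), at 79.2 and 71 CPM in the controls and 29.1, 26.5 and 30.9 CPM with TGF-β1. With no overlap between groups it fell 2.6-fold (log2 ratio −1.38 with SE 0.073 and adjusted p = 5.28e-07). Kcnab2, of the same fold, fell from 19 ± 0.722 to 9.61 ± 0.519 CPM (log2 ratio −0.98 with SE 0.090 and adjusted p = 2.14e-05). The third of these genes, Kcnab3, was higher, from 1.28 ± 0.369 to 2.25 ± 0.39 CPM (log2 ratio 0.82 with SE 0.27 and adjusted p = 0.0358). That call was not stable: it was absent without control 2 (adjusted p = 0.225), without TGF-β1 replicate 1 (0.0717) or replicate 3 (0.0818), with library totals (0.0576) and without the low-count filter (0.0669). Kcne4 (ENSMUSG00000047330 on chromosome 1, 78816758 to 78820028), a small membrane protein of the MinK family that dampens several potassium channels, had 7.53 and 7.28 CPM in the controls and 1.47, 0.833 and 1.45 CPM with TGF-β1, a fall of 5.93-fold (log2 ratio −2.57 with SE 0.23 and adjusted p = 1.62e-05). Kcnip2, a calcium-binding partner of A-type channels, was scarce and lower (0.711 ± 0.171 to 0.146 ± 0.121 CPM, adjusted p = 0.0128), with 0.0508 without control 1 and 0.133 without control 2, and Kcnip3 did not pass (adjusted p = 0.684).

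Inward rectifiers, which hold the resting potential near that of potassium, included 0 higher and 3 lower of 6. Of all genes tested, 21.3% were higher and 23.2% lower. Kcnj15 (ENSMUSG00000062609 on chromosome 16, 95257558 to 95300260) was the most abundant per kilobase (1.33 to 0.568 CPM per kb), at 9.47 and 7.39 CPM in the controls and 3.13, 3.57 and 4.06 CPM with TGF-β1, and fell 2.35-fold (log2 ratio −1.23 with SE 0.17 and adjusted p = 2.66e-04). Kcnj2, the classical strong inward rectifier, was at 4.21 and 4.92 CPM in the controls and 1.59, 1.64 and 3.13 CPM with TGF-β1. TGF-β1 replicate 3 was the highest of the treated libraries yet below both controls (log2 ratio −1.11 with SE 0.28 and adjusted p = 0.0108, or adjusted p = 0.0911 without control 2). Kcnj8, the pore of a vascular ATP-sensitive channel and a marker of pericytes, fell from 30 and 46 counts to 3, 0 and 13 (0.968 ± 0.178 to 0.137 ± 0.176 CPM, log2 ratio −2.83 with SE 0.80 and adjusted p = 0.0175). That call was lost without control 1 (adjusted p = 0.0755), without control 2 (0.132) and without the low-count filter (0.0547). Abcc9, which encodes the regulatory subunit that pairs with it, was too scarce to be tested, at 0.142 and 0.0504 CPM. Of the 7 pericyte markers counted, 2 were higher and 1 was lower. The part of pericytes in the level of Kcnj8 was not tested. Kcnj4, Kcnj10 and Kcnj14 did not pass, with adjusted p of 0.62, 0.766 and 0.142.

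Over the 29 potassium pore genes together, the summed level per kilobase was 16.1 ± 0.219 CPM in the controls and 13.2 ± 0.561 CPM with TGF-β1, lower by 1.22-fold. The share held by Kcnk12 went from 0.534 ± 0.127% to 16.6 ± 1.6%, and that of Kcnh2 from 14.9 ± 0.877% to 8.03 ± 0.633%. For both genes the shares of the 2 groups did not overlap. The shares come from the same levels as the calls above and add no separate support. Kcnk12 met the count minimum only through the TGF-β1 libraries, and its share depends on its exon length of 1972 bases.

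Every called pore gene of voltage-gated calcium channels was lower (5 of 6, with 0 higher). Cacna1c (ENSMUSG00000051331 on chromosome 6, 118587240 to 119196418), the L-type pore that carries calcium into heart and smooth muscle, led them in level per kilobase (2.47 to 1.84 CPM per kb), at 45 and 59.9 CPM in the controls and 36.5, 42.8 and 37.5 CPM with TGF-β1. The controls differed from each other by more than control 1 differed from the highest treated library, and the fall of 1.35-fold (log2 ratio −0.43 with SE 0.11 and adjusted p = 0.012) was not called without control 2 (adjusted p = 0.155). T-type pores open at low voltage, and both of those among the members fell. Another T-type pore gene, Cacna1i, had 9 counts over the 5 libraries and was dropped. Cacna1h (ENSMUSG00000024112 on chromosome 17, 25374285 to 25433783) was at 15.4 and 15.9 CPM in the controls and 6.91, 6.69 and 6.41 CPM with TGF-β1 (log2 ratio −1.23 with SE 0.097 and adjusted p = 7.67e-06). Cacna1g fell from 8.42 ± 0.77 to 3.33 ± 0.644 CPM (log2 ratio −1.33 with SE 0.17 and adjusted p = 2.23e-04). The P/Q-type pore gene Cacna1a fell from 9.75 ± 0.839 to 5.14 ± 0.584 CPM (log2 ratio −0.93 with SE 0.14 and adjusted p = 4.92e-04) and Cacna1d, an L-type pore of lower abundance, from 2.04 ± 0.294 to 1.09 ± 0.0892 CPM (adjusted p = 0.0141, or 0.107 without control 1). The N-type pore gene Cacna1b, at 0.253 ± 0.0795 to 0.271 ± 0.104 CPM, did not pass (adjusted p = 0.912). Summed per kilobase, the 6 pore genes went from 5.95 ± 0.516 to 3.41 ± 0.0786 CPM, 1.74-fold lower, and Cacna1c held 38.0 and 44.8% of that sum in the controls and 50.5, 57.8 and 53.0% with TGF-β1.

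The accessory subunits of these channels did not all follow the pores: 1 of 7 was higher and 4 were lower. Cacna2d1 (ENSMUSG00000040118 on chromosome 5, 15934691 to 16374511), the extracellular α2δ subunit that brings channels to the surface and binds gabapentin, was at 37.9 and 40.1 CPM in the controls and 61.3, 61 and 65.7 CPM with TGF-β1. It rose 1.61-fold (log2 ratio 0.68 with SE 0.056 and adjusted p = 1.03e-05), the only called increase among the 13 Cacn members. Its ratio to Cacna1c in CPM per kilobase was 1.44 and 1.14 in the controls and 2.87, 2.43 and 2.99 with TGF-β1. The cytoplasmic β subunits, which traffic and modulate the pore, were lower where they passed. Cacnb3 (ENSMUSG00000003352 on chromosome 15, 98630840 to 98644529) led the β subunits in level per kilobase (37.9 to 28.8 CPM per kb), at 157 and 147 CPM in the controls and 114, 117 and 115 CPM with TGF-β1, and its fall was small, 1.31-fold (log2 ratio −0.39 with SE 0.041 and adjusted p = 5.29e-05). Cacnb1 and Cacnb2 also fell, Cacnb1 from 12.5 ± 0.211 to 5.22 ± 0.567 CPM (log2 ratio −1.26, adjusted p = 3.37e-05) and Cacnb2 from 7.54 ± 0.898 to 3.22 ± 0.462 CPM (log2 ratio −1.23, adjusted p = 2.62e-04). Cacnb3 thus held 91.8 ± 0.417% of the summed β subunit level per kilobase in the controls and 95.3 ± 0.41% with TGF-β1. Cacnb4 was at 0.387 ± 0.00904 to 0.182 ± 0.0214 CPM, did not pass (adjusted p = 0.103) and is uncertain, as its exons overlap the more abundant A430018G15Rik on the opposite strand over 1433 bases. Of the γ subunits, Cacng7, named for its calcium channel relatives and known as a partner of AMPA receptors, fell from 15.5 ± 0.0756 to 12 ± 0.786 CPM (log2 ratio −0.36 with SE 0.092 and adjusted p = 0.0106), with adjusted p = 0.0572 without control 1 and 0.066 without control 2, and Cacng8 did not pass (adjusted p = 0.263).

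Of the 10 TRP-prefixed genes, 0 were higher and 4 were lower, against 21.3% and 23.2% of all genes tested. Both TRPV members fell. Trpv2 (ENSMUSG00000018507 on chromosome 11, 62574486 to 62600515), a cation channel also abundant in macrophages, was at 19.6 and 20.5 CPM in the controls and 10.8, 11 and 10.4 CPM with TGF-β1 (log2 ratio −0.90 with SE 0.082 and adjusted p = 2.07e-05). Of the 8 macrophage markers, 6 fell, with log2 ratios from −0.81 (Lyz2) to −0.18 (Tyrobp), Ptprc rose (0.29) and C1qa did not pass (−0.03, adjusted p = 0.605). The median of the list was −0.38, and the part of macrophage RNA in the level of Trpv2 was not tested. Trpv4 (ENSMUSG00000014158 on chromosome 5, 114622152 to 114658421), an osmotically and mechanically activated calcium channel studied in lung fibrosis, was scarce at 1.07 and 1.62 CPM in the controls and 0.497, 0.428 and 0.517 CPM with TGF-β1 (log2 ratio −1.48 with SE 0.33 and adjusted p = 0.00562, or adjusted p = 0.092 without control 2).

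In the TRPC family of receptor-operated channels, Trpc6, a diacylglycerol-activated channel often studied in myofibroblasts, was at 5.45 and 4.23 CPM in the controls and 2.88, 3.86 and 3.75 CPM with TGF-β1. All treated libraries were below the controls, yet the difference did not pass (log2 ratio −0.47 with SE 0.19 and adjusted p = 0.0737), except with library totals (adjusted p = 0.0354). Trpc1 was at 8.85 ± 0.873 to 9.79 ± 0.418 CPM with overlapping groups (log2 ratio 0.14 with SE 0.11 and adjusted p = 0.332). Trpc4 had 24 and 23 counts in the controls and 0, 0 and 3 with TGF-β1, and was called lower (adjusted p = 0.00248). As a ratio of normalized counts the controls were 24.4-fold higher, with a 95% exact interval of 7.85 to 122.5 that covers counting error only, and the gene stands at the count minimum of the rule. The adaptor Trpc4ap was abundant, at 155 and 152 CPM in the controls and 155, 162 and 164 CPM with TGF-β1, and did not pass (log2 ratio 0.06 with SE 0.038 and adjusted p = 0.22). Its sign turned with library totals (log2 ratio −0.04).

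Of 4 TRPM members, 0 were higher and 1 was lower, a share of decreases near the 23.2% of all genes tested. Trpm7 (ENSMUSG00000027365 on chromosome 2, 126791565 to 126876230), a magnesium-permeable channel fused to a kinase, was the most abundant TRP pore gene per kilobase (8.96 to 7.92 CPM per kb), at 103 and 99.6 CPM in the controls and 85.5, 89.4 and 94.2 CPM with TGF-β1. The decrease of 1.13-fold was called (log2 ratio −0.18 with SE 0.050 and adjusted p = 0.0168) but not without control 1 (adjusted p = 0.134), control 2 (0.0551), TGF-β1 replicate 1 (0.0647) or replicate 2 (0.0559). The calcium-activated Trpm4 (18.4 ± 0.365 to 19.6 ± 1.12 CPM) and the ADP-ribose-gated Trpm2 (3.58 ± 0.38 to 4.17 ± 0.175 CPM) were higher in every treated library than in both controls without passing (adjusted p = 0.383 and 0.296), and the log2 ratio of Trpm4 went from 0.092 to −0.008 with library totals. Trpm3 did not pass (adjusted p = 0.717).

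Among sodium channel genes, the pore gene Scn2a was at 3.88 and 3.0 CPM in the controls and 2.31, 3.71 and 2.64 CPM with TGF-β1, with overlapping groups (log2 ratio −0.25 with SE 0.24 and adjusted p = 0.44). Scn3b (ENSMUSG00000049281 on chromosome 9, 40269217 to 40291618), a β subunit of the immunoglobulin fold that modulates the pore, went from 2.31 ± 0.235 to 0.584 ± 0.19 CPM, a fall of 3.94-fold (log2 ratio −1.98 with SE 0.31 and adjusted p = 6.49e-04). The Scn3b values of the 2 groups did not overlap.

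Genes that work with these channels in calcium handling were also counted. Among 16 genes of store-operated entry and store release, 4 were higher and 9 lower, with a median log2 ratio of −0.38. Itpr1, an inositol trisphosphate receptor that releases stored calcium, fell from 145 ± 2.81 to 62.7 ± 1.32 CPM (log2 ratio −1.21 with SE 0.041 and adjusted p = 2.44e-08), and Orai2, a pore of store-operated entry, from 57.2 ± 0.13 to 36.4 ± 3.52 CPM (log2 ratio −0.65 with SE 0.074 and adjusted p = 9.13e-05). Of 8 calcium pump and exchanger genes tested, 2 were higher and 3 lower. The plasma membrane pump gene Atp2b4 rose from 30.6 ± 0.344 to 88.8 ± 4.04 CPM (log2 ratio 1.54 with SE 0.055 and adjusted p = 3.78e-08) while the sodium-calcium exchanger gene Slc8a1 fell from 76.9 ± 3.01 to 46.5 ± 2.04 CPM (log2 ratio −0.72 with SE 0.054 and adjusted p = 5.06e-06).

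In the calcineurin and NFAT list, 2 of 18 genes were higher and 5 lower. Nfatc1, a calcium-regulated transcription factor, rose from 9.58 ± 1.07 to 20.2 ± 2.51 CPM (log2 ratio 1.08 with SE 0.13 and adjusted p = 1.02e-04), and Rcan2, a calcineurin regulator, fell from 24 ± 0.577 to 4.09 ± 0.386 CPM (log2 ratio −2.55 with SE 0.10 and adjusted p = 9.85e-08). Of 22 other cation channel genes tested, 5 were higher and 10 lower, among them the lysosomal channel gene Tpcn1, which fell from 62.5 ± 1.23 to 35 ± 2.22 CPM (log2 ratio −0.84 with SE 0.060 and adjusted p = 4.22e-06), and the purinergic receptor gene P2rx6, which fell from 9.57 ± 0.414 to 6.14 ± 0.906 CPM (adjusted p = 0.00544). Channel partner proteins were split, with 4 of 11 tested genes higher and 3 lower. The membrane anchor gene Ank2 rose from 12.3 ± 1.37 to 19 ± 0.309 CPM (adjusted p = 4.56e-04) and Rem1, a small GTPase that inhibits calcium channels, fell from 16.1 ± 0.344 to 11.5 ± 0.63 CPM (adjusted p = 0.00198). Over all 102 tested genes of the 7 partner lists, 27 were higher and 37 lower with a median of −0.10. Of all 16380 genes tested, 3488 (21.3%) were higher and 3799 (23.2%) lower, the share to set beside each list.

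Among the 95 genes under the count minimum, 31 had 1 to 9 counts over the 5 libraries and 25 had 10 to 49. At this depth nothing could be said of their change.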

How the data were processed

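Messenger RNA of 5 libraries (2 control, 3 TGF-β1) was sequenced from strand-specific polyA libraries, per the labels' protocols. The authors deposited whole-number counts per gene, without scaling. Per the submitters' processing notes, STAR 2.5.3a, StringTie 1.3.1c and the mouse build mm10 were used. The counting tool, its strand setting, its handling of multi-mapping reads and its annotation were not given in the sources used here; genes with an exon overlap with another gene at over 0.1 of their own count are marked uncertain.

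Symbols, coordinates (1-based, whole gene) and exon lengths (union of exons) are from GENCODE M21 (GRCm38), which named 55154 IDs. All genes were fitted together: filterByExpr by group (16380 genes kept), TMM factors of 0.972 to 1.05, and edgeR's quasi-likelihood F test on group, two-sided. P-values were adjusted by Benjamini-Hochberg across the whole table, and 0.05 was the threshold. SE is the absolute log2 fold change over the square root of F. Levels are mean ± SD of TMM-normalized CPM (n = 2 and 3). A permutation of 2 against 3 libraries cannot go below p = 0.1, so single-gene tests rest on the spread shared across genes; the common biological coefficient of variation was 0.0765.

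Some members and partner genes are not reported by name here. The members and lists were chosen with earlier results of these data known. Named genes were 20 fixed symbols where retained, the 12 largest called changes in each direction at 0.5 CPM or more, the most abundant gene of each subfamily, and up to 2 called partner genes of at least 5 CPM per list; the remaining members were named after their values were seen. Alternatives were scaling by library totals, upper quartile or median of ratios, a filter of over 1 CPM in 2 libraries or none, DESeq2, limma-voom, a 1.5-fold null, a replicate block and leaving out each library. Models ran in DESeq2 1.42.0, limma 3.58.1 and edgeR 4.0.16 under R 4.3.3; tables and plots used matplotlib 3.10.9, numpy 2.4.6 and pandas 2.3.3 with Python 3.11.15.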

Additional observations from a re-analysis of the deposited data

How the results depend on the processing

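Counts of members and of all genes were recomputed under 14 other settings. Against a null of a 1.5-fold change, 4 members were higher and 16 lower, with 563 higher and 1223 lower genes in all; the stricter null itself makes fewer calls. Under the other scalings, filters and tests, 5 to 7 members were higher and 28 to 33 lower, the 28 with the filter of over 1 CPM in 2 libraries, which 48 members passed. Leaving out 1 library gave 6 to 7 higher and 22 to 33 lower members, with the lowest count of decreases without control 2, and 2620 to 3623 higher and 2813 to 3881 lower genes in all. With a control left out, the spread comes from the TGF-β1 libraries alone. With library totals 2325 genes were higher in all, and the median of all genes moved to −0.10. Of 501 combinations of 36 named members and a setting, 461 kept direction and side of the threshold, 33 lost the call, 3 gained one and 4 turned in sign. Those 4 were uncalled values: Trpc4ap with library totals (log2 ratio −0.037), Kcnk2 without control 1 (−0.085, in a leave-one-out range up to 0.4) and Kcnma1 without control 1 (−0.209) or TGF-β1 replicate 1 (−0.219, in a range up to 0.583). The cause was not tested. Replicate numbers are shared by the groups, but same-numbered libraries did not deviate together (correlations of 0.0159 and 0.0161 for the 2 pairs). With the replicate number as a block, 6 members were higher and 31 lower; Kcnab3, Kcnn1 and Kcnq5 were then not called (adjusted p = 0.0629, 0.0727 and 0.0548), and Kcnk6 was called lower (0.0499). Leaving out 1 control ended the call of members under 1 CPM such as Kcnj8, Kcnip2 and Trpv4. It also ended that of more abundant members such as Trpm7, Cacna1c and Kcnd1. The part of low counts in these losses was not tested.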

Other observations

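The sodium-potassium pump, which builds the gradients that these channels use, changed in both directions, with 3 higher and 3 lower among its 8 tested genes. The β subunit gene Atp1b1 had 195 and 192 CPM in the controls and 40.7, 36.4 and 40.9 CPM with TGF-β1 and fell 4.92-fold (log2 ratio −2.30 with SE 0.054 and adjusted p = 2.73e-09 by edgeR). Among 19 chloride and anion channel genes tested, 7 were higher and 4 lower. Over all 16380 genes tested, 21.3% were higher and 23.2% lower. Lrrc8c, a subunit of the volume-regulated anion channel, rose from 106 ± 1.76 to 208 ± 9.25 CPM (log2 ratio 0.97 with SE 0.044 and adjusted p = 1.95e-07), and the chloride channel gene Clcn2 fell from 12 ± 0.151 to 7.47 ± 1.05 CPM (log2 ratio −0.69 with SE 0.13 and adjusted p = 0.00221).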
